A study of Mus musculus with 15 samples.

Results

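Immediate early genes are the first genes that a cell transcribes after a stimulus, because the transcription factors that switch them on, among them CREB and SRF, are already present and need only be activated by kinases. Most of them code for transcription factors themselves. In the brain they are widely used as marks of recent neuronal activity, and they also respond to growth factors, injury and the enzymatic dissociation of tissue. The genes described here are 10 of the 18193 genes measured and were chosen by symbol: Fos, Fosb, Jun, Junb and Atf3, whose proteins form AP-1 and related dimers, Egr1, a zinc finger factor, the orphan nuclear receptors Nr4a1 and Nr4a2, Btg2, an antiproliferative cofactor, and Ier2, a nuclear protein of the same rapid response. All 10 were on the array, and each was read from its brightest probe set by mean level over all arrays.

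The arrays measured mRNA in cells sorted by flow cytometry from 3 microdissected brain regions, the zone under the lining of the lateral ventricle (subventricular zone, SVZ), hippocampus and cerebellum, with 5 arrays for each. All groups shared the genotype Gli1-CreER;GFAP-GFP;R26tdTomato, in which a recombinase that tamoxifen activates is made under control of Gli1, a target of Sonic hedgehog signalling, a red reporter marks the cells where it has acted, and green fluorescence marks cells with an active GFAP promoter, an astroglial promoter. The mice were males aged 6 to 8 weeks, given 2 doses of 10 mg tamoxifen, and cells positive for both reporters were collected 3 weeks later. No group went without tamoxifen, and no stimulus was applied that the labels name. Each array carried amplified RNA of 10 to 12 pooled mice, so a value is the mean of a pool. The series design set SVZ against cerebellum and hippocampus against cerebellum, and then compared SVZ with hippocampus. Values are log2 signal, on which a difference of 1 is a doubling. In pooled bulk RNA, fewer cells with a transcript and less of it per cell cannot be told apart.

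Of 10 astrocyte markers, all had region means above 3, a level above which 15.14% to 22.45% of probe sets lay on any array. The mean of these markers lay between 8.07 and 8.62 in SVZ, between 7.71 and 8.88 in hippocampus and between 8.39 and 9.62 in cerebellum. Neuron markers were low as a list, with list means of 1.41 to 2.11 in SVZ, 1.51 to 2.07 in hippocampus and 1.79 to 2.68 in cerebellum. Of the 13, however, 2 had region means above 3 in each region, and Map2 read 5.21 to 7.49 over all arrays. SVZ array 1 had the smallest share of probe sets above 3, at 15.14%, close to the 15.25% of hippocampus array 3. SVZ array 1 was also the only array whose actin 3′ probe set read above the 5′ one, by 0.87, whereas the other 14 arrays had differences below 0. By GAPDH probe sets, however, its 3′ minus 5′ difference of 3.41 lay within the range of the other arrays, 2.68 to 4.24. Results that rest on this array are given with and without it. Array medians lay between 1.12 and 1.31, which is low for values made with RMA, the stated normalization. Genes near those levels are close to the floor of the measurement, and the size of their differences is uncertain, including differences from cerebellum where a member read near that floor there.

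The stretches of 250 bases before the transcription start of 5 members are shown because they hold, or in 1 case lack, an exact match to the core of a sequence element tied to rapid induction. They come from RefSeq promoter windows on the mouse build GRCm38.p6, which cover 300 bases, 250 before the start and 50 after it, and were matched by symbol for 8 of the 10 members. Egr1 and Ier2 are named only. The cAMP response element (CRE), the site of CREB and ATF proteins, reads TGACGTCA in full, and its core is TGACG, or CGTCA on the other strand. Capitals mark the cores. The sequences run 5′ to 3′ on the strand of the gene, for Fos from chr12:85473640-85473889 (plus strand), for Nr4a1 from chr15:101266596-101266845 (plus strand), for Nr4a2 from chr2:57124004-57124253 (minus strand), for Btg2 from chr1:134079156-134079405 (minus strand) and for Jun from chr4:95052223-95052472 (minus strand).
Fos: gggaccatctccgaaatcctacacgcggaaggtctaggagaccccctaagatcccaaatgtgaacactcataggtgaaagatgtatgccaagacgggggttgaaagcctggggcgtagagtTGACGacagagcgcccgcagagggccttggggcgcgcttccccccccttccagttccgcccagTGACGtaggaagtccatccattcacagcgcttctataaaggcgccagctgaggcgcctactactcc
Nr4a1: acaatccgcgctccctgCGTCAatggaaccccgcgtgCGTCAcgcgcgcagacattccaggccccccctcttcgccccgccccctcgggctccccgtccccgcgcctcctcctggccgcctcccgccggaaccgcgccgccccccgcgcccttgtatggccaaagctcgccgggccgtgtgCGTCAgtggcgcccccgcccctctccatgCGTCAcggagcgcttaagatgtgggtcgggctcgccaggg
Nr4a2: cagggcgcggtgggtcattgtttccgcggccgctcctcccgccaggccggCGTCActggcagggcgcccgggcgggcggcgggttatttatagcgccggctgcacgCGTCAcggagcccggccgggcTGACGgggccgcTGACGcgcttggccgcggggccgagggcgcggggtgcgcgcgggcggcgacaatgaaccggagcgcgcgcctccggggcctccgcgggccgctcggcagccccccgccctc
Btg2: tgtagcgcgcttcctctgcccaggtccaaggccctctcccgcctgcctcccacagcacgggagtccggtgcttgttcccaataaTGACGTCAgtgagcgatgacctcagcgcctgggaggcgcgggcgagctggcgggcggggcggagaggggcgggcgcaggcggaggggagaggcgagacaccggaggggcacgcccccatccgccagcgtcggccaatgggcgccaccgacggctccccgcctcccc
Jun: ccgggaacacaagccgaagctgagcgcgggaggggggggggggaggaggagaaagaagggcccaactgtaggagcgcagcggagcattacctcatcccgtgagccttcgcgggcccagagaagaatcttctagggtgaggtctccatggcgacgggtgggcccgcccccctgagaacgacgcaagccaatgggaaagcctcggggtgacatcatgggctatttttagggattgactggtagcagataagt
A core on either strand was found in 7 of the 8 windows, all but that of Jun, and in 20.8% of 32851 RefSeq promoter windows of the same length. Nr4a1 and Nr4a2 each held 4 cores, and Fos held 2, the nearer one at -66 to -62 from the start. Fosb, Junb and Atf3 held 1 each. Btg2 alone held the full element, at -166 to -159, which its 2 overlapping cores make up, and 1.79% of all windows held it. None of the 8 windows held a CArG box, the site of SRF (1.63% of all windows), an AP-1 site TGAGTCA (5.2%), an NR4A response element AAAGGTCA (1.51%) or an EGR site GCGTGGGCG (0.612%), each searched on both strands. The 8 windows were 58.7% to 81.7% G and C, and the cores contain a CG pair, so base composition is shared with the count of cores. These matches describe exact letters in the windows only, and bases farther from the start were not searched.

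SVZ had the highest mean of the 3 regions for every member. Of the 10, 2 members, Nr4a1 and Nr4a2, were called higher in SVZ than in cerebellum (limma, Benjamini-Hochberg adjusted p under 0.05 over all 18193 genes), and none was called between hippocampus and cerebellum or between SVZ and hippocampus. Among all genes, 1.03% were called higher and 4.47% lower in SVZ than in cerebellum. For hippocampus against cerebellum these shares were 0.808% and 3.97%, and for SVZ against hippocampus 0.0165% and 0.0055%. Under quantile normalization the balance of these calls moved, with 213 genes higher and 396 lower in SVZ than in cerebellum, where the deposited values gave 188 and 814, and with 155 higher and 337 lower in hippocampus, where they gave 147 and 722. No member was called lower in any comparison. The 2 comparisons with cerebellum share its arrays and are therefore not independent of each other.

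**Figure D1:**
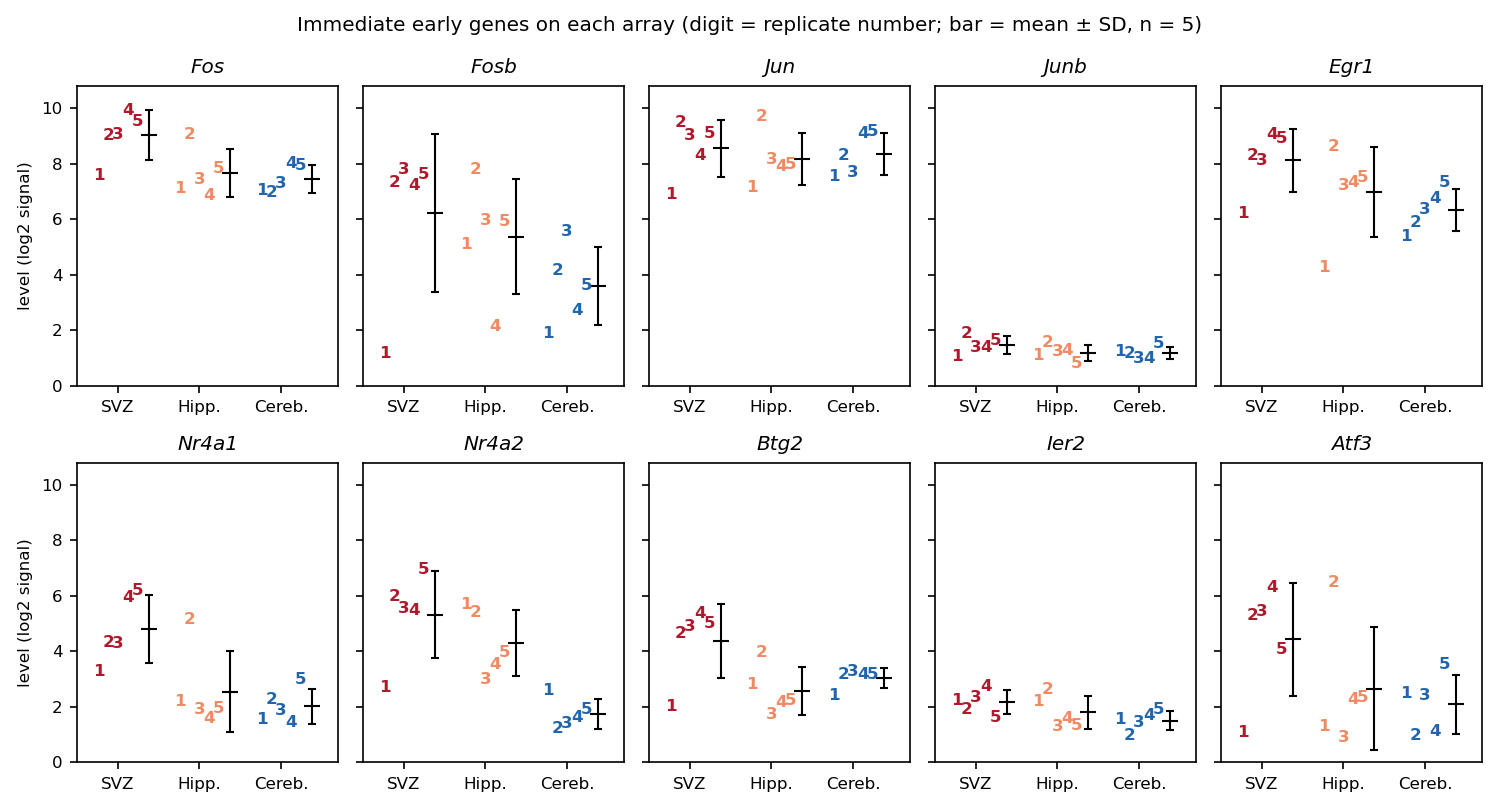
Level of the 10 immediate early genes on each array (vertical axis, log2 signal), by region, where each digit is the replicate number of 1 array and the black bar is the mean ± SD of 5 arrays. For Nr4a1 and Nr4a2 the 5 SVZ arrays lie above the 5 cerebellum arrays, and SVZ array 1 and hippocampus array 2 often stand away from their groups.

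The orphan nuclear receptors were the members that passed the test. Nr4a2, best known for its need in midbrain dopamine neurons, read 2.69, 5.97, 5.55, 5.48 and 6.93 on SVZ arrays, 5.70, 5.41, 2.99, 3.51 and 3.95 on hippocampus arrays, and 2.60, 1.21, 1.39, 1.61 and 1.89 on cerebellum arrays. Every SVZ and every hippocampus array lay above every cerebellum array, although SVZ array 1 cleared cerebellum array 1 narrowly. Nr4a2 was higher in SVZ than in cerebellum by 3.58 ± 0.70 (log2 difference ± SE, 5 against 5 arrays), a 12.0-fold difference on these values with a limma adjusted p of 0.00811. Without SVZ array 1 the difference was 4.24 (adjusted p = 0.000621). Hippocampus differed from cerebellum by 2.57 ± 0.70 (95% interval 1.07 to 4.07), which missed the threshold at a limma adjusted p of 0.0515. With all arrays kept, that limma value moved to either side of the threshold with the processing, between 0.00915 (array weights) and 0.337 (spike-in covariate). It was 0.00527 without SVZ array 1 and hippocampus array 3, a choice made after seeing the data. SVZ and hippocampus arrays overlapped, with a difference of 1.01 and a 95% interval of -0.49 to 2.51 (limma adjusted p = 0.771).

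Nr4a2 had 6 probe sets, and the size of its difference depended on which was read. All 6 were positive in all 3 comparisons. In SVZ against cerebellum they ranged from 0.30 to 3.58 and 1, the one used, was called when every probe set was tested on its own, and 5 of the 6 had an unadjusted limma p under 0.05. In hippocampus against cerebellum they ranged from 0.17 to 2.57, with 0 called by limma and 3 at an unadjusted p under 0.05. The probe set with the next highest mean read 2.08, 4.41, 3.49, 3.68 and 5.69 on SVZ arrays, 2.87, 6.02, 3.18, 3.35 and 3.35 on hippocampus arrays, and 2.64, 0.53, 2.44, 1.13 and 1.96 on cerebellum arrays, with differences of 2.13 and 2.01 from cerebellum. Averaging the 6 probe sets gave Nr4a2 a smaller difference of 1.47 in SVZ against cerebellum (limma adjusted p = 0.00907) and 1.12 in hippocampus against cerebellum (adjusted p = 0.0432).

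**Figure D2:**
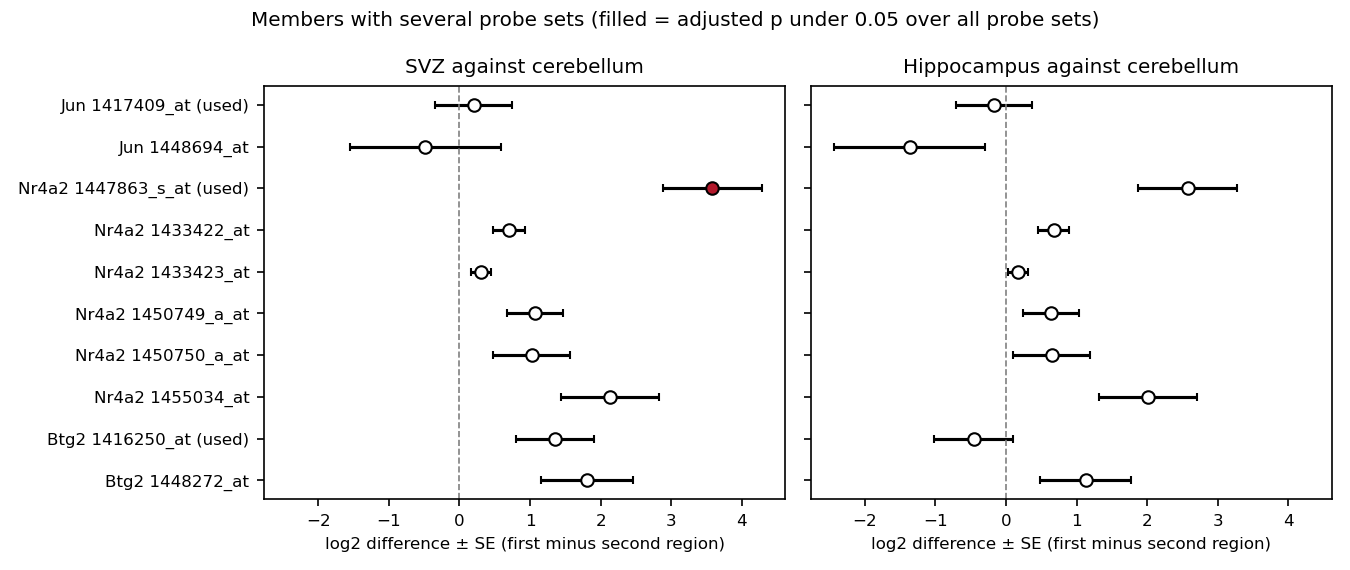
Log2 difference from cerebellum ± SE (horizontal axis) for each probe set of the 3 members that have several, with SVZ on the left and hippocampus on the right, and filled points for an adjusted p under 0.05 over all probe sets. The 6 Nr4a2 probe sets all lie right of 0 at very different sizes, 0.30 to 3.58 in SVZ, while the Jun pair has opposite signs in SVZ (0.20 and -0.48) and the Btg2 pair in hippocampus (-0.46 and 1.13).

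Nr4a1, the founding member of the same receptor family, read 3.29, 4.32, 4.27, 5.94 and 6.19 on SVZ arrays, 2.19, 5.13, 1.90, 1.59 and 1.95 on hippocampus arrays, and 1.53, 2.26, 1.86, 1.44 and 2.99 on cerebellum arrays. All SVZ arrays lay above all cerebellum arrays, and hippocampus arrays other than array 2 lay at or below 2.19, within the range of cerebellum. Nr4a1 was higher in SVZ than in cerebellum by 2.79 ± 0.68, a 6.90-fold difference (limma adjusted p = 0.0288). The call was lost, at adjusted p values of 0.0560 to 0.0729, when SVZ array 4 or 5 or cerebellum array 1, 2, 3 or 4 was left out, while the difference stayed between 2.44 and 2.85. Nr4a1 in hippocampus differed from cerebellum by 0.54 ± 0.68 (95% interval -0.93 to 2.00, limma adjusted p = 0.664), and without hippocampus array 2 by -0.11. The direct comparison of SVZ with hippocampus gave 2.25 (95% interval 0.78 to 3.72), with an unadjusted p of 0.00536 and a limma adjusted p of 0.478, so the 2 regions were not shown to differ. For Nr4a1 and Nr4a2 the calls in SVZ also ended when the mean level of poly-A spike-in probe sets was entered as a covariate, with adjusted p values of 0.159 and 0.133. The differences themselves were 3.37 for Nr4a1 and 3.72 for Nr4a2 with the covariate, against 2.79 and 3.58 without it. Those spike-in levels were 11.04 to 13.1 on SVZ arrays, 11.5 to 12.9 on hippocampus arrays and 8.49 to 12.3 on cerebellum arrays, and their part in the result was not tested beyond this covariate.

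Arrays of SVZ and cerebellum did not overlap, with SVZ higher, for the same 2 members, against 2.6% of all genes. In hippocampus against cerebellum 1 member, Nr4a2, had no overlap, against 2.68% of genes, and in SVZ against hippocampus 0 members, against 0.374% of genes. At an unadjusted p under 0.05, 7 members were higher in SVZ than in cerebellum (7.55% of genes), 1 in hippocampus than in cerebellum (7.55% of genes) and 3 in SVZ than in hippocampus (3.53% of genes). The members' differences were positive for 10 of 10 in SVZ against cerebellum, with a median of 1.68, where the median over all genes was 0.07 and 56.5% of genes were positive. They were positive for 8 of 10 in hippocampus against cerebellum, with a median of 0.42 beside 0.07 over all genes, and for 10 of 10 in SVZ against hippocampus, with a median of 1.07 beside -0.004 over all genes.

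**Figure D3:**
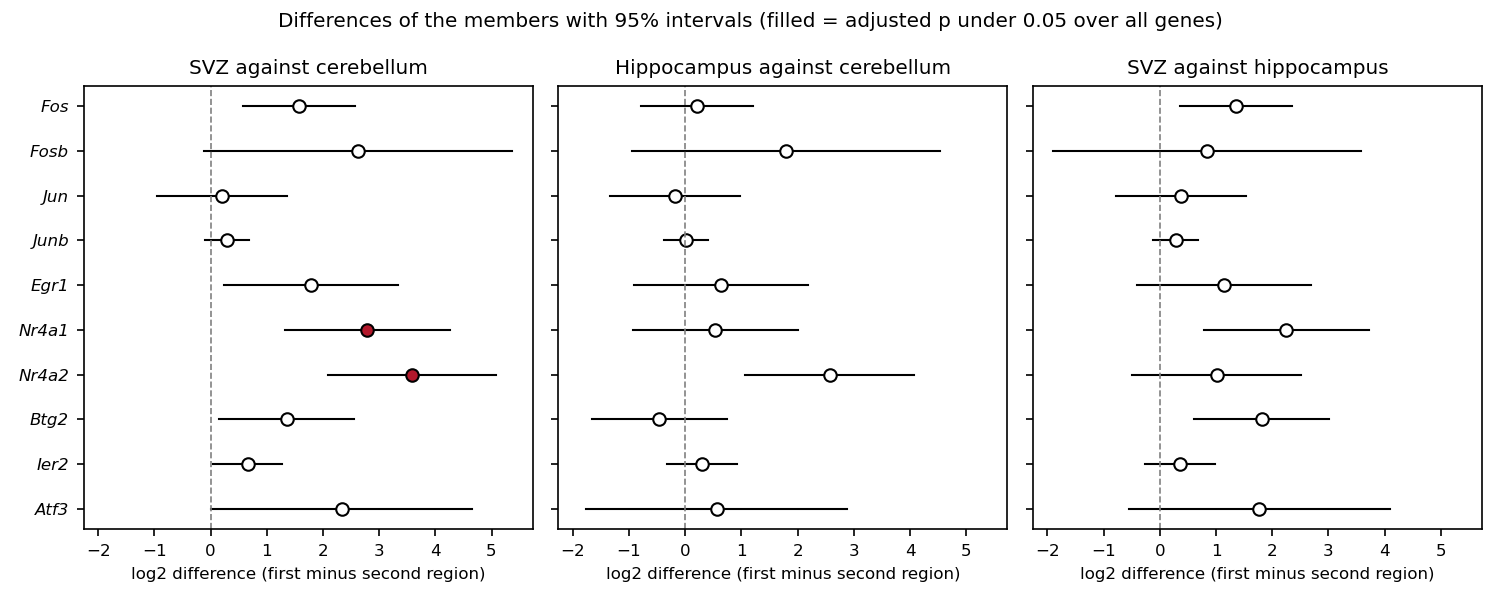
Log2 difference (horizontal axis) with its 95% interval from limma for each member, in SVZ against cerebellum, hippocampus against cerebellum and SVZ against hippocampus, with filled points for an adjusted p under 0.05 over all genes. Nr4a1 (2.79) and Nr4a2 (3.58) in the left panel are the filled points, and the intervals of Fosb and Atf3 are the widest.

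Among the Fos family, Fos, the dimer partner of Jun in the classical AP-1 complex, read 7.56, 9.02, 9.07, 9.93 and 9.53 on SVZ arrays, 7.10, 9.07, 7.44, 6.86 and 7.84 on hippocampus arrays, and 7.05, 6.98, 7.28, 8.02 and 7.93 on cerebellum arrays. The transcript was therefore present well above the array median in all 15 pools. SVZ arrays 2 to 5 lay above all cerebellum arrays, and SVZ array 1 fell inside their range. The difference of 1.57 ± 0.46 between SVZ and cerebellum missed the threshold (limma adjusted p = 0.0654). Without SVZ array 1 it was called at 1.94 (adjusted p = 0.0164). With all arrays it was called under quantile normalization at 1.92 (adjusted p = 0.0183), without dim probe sets (0.0442), with array weights (0.0239) and with region weights (0.0361). Between hippocampus and cerebellum Fos differed by 0.21 (95% interval -0.78 to 1.2), and in SVZ against hippocampus by 1.36 (unadjusted p = 0.0108, limma adjusted p = 0.539).

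Fosb, whose long-lived splice form accumulates in neurons under repeated stimulation, varied widely among pools. It read 1.16, 7.31, 7.81, 7.21 and 7.62 on SVZ arrays, 5.10, 7.79, 5.94, 2.15 and 5.91 on hippocampus arrays, and 1.88, 4.17, 5.56, 2.73 and 3.62 on cerebellum arrays. In SVZ, 4 arrays lay within a narrow band above every cerebellum array, and array 1 lay below all of them. The difference from cerebellum was 2.63 ± 1.28 in SVZ (limma adjusted p = 0.256) and, without SVZ array 1, 3.90 (adjusted p = 0.0321). In hippocampus it was 1.79 (95% interval -0.96 to 4.53).

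Neither Jun gene was called in any comparison. Jun, the other subunit of AP-1, read 6.90, 9.47, 9.0, 8.30 and 9.10 on SVZ arrays, 7.16, 9.71, 8.17, 7.89 and 7.96 on hippocampus arrays, and 7.54, 8.28, 7.69, 9.09 and 9.17 on cerebellum arrays. The 3 regions overlapped throughout. The difference in SVZ against cerebellum was 0.20 (95% interval -0.96 to 1.36), and that in hippocampus against cerebellum was -0.18 (95% interval -1.34 to 0.98), which turned to 0.19 under quantile normalization. A further Jun probe set gave -0.48 and -1.36 for these comparisons, neither called. Junb, which can restrain AP-1 activity by Jun, read between 0.79 and 1.89 on all 15 arrays, close to the array medians, so its probe set gave little room to see a difference in any region. Its differences were 0.29 in SVZ against cerebellum, 0.01 in hippocampus against cerebellum (-0.09 under quantile normalization) and 0.28 in SVZ against hippocampus.

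Atf3, an ATF family protein induced by cell stress, read 1.07, 5.28, 5.44, 6.31 and 4.05 on SVZ arrays, 1.31, 6.47, 0.90, 2.28 and 2.33 on hippocampus arrays, and 2.47, 0.96, 2.41, 1.13 and 3.52 on cerebellum arrays. SVZ arrays 2 to 5 lay above all cerebellum arrays, as did 1 hippocampus array, number 2. The differences from cerebellum were 2.33 ± 1.08 in SVZ (limma adjusted p = 0.235) and 0.56 ± 1.08 in hippocampus, where the adjusted p was 0.782. Without SVZ array 1, Atf3 was still not called in SVZ.

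Egr1, a zinc finger factor that activates synaptic and growth genes, read 6.22, 8.29, 8.12, 9.07 and 8.90 on SVZ arrays, 4.25, 8.61, 7.22, 7.34 and 7.50 on hippocampus arrays, and 5.38, 5.88, 6.35, 6.76 and 7.33 on cerebellum arrays. Here too SVZ arrays 2 to 5 lay above the cerebellum arrays and array 1 among them. The difference was 1.78 ± 0.72 in SVZ against cerebellum (95% interval 0.23 to 3.33, limma adjusted p = 0.177) and 0.64 ± 0.72 in hippocampus against cerebellum (adjusted p = 0.621).

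Btg2, which slows the cell cycle and in the embryonic mouse cortex marks progenitors that make neurons, read 2.03, 4.63, 4.88, 5.37 and 4.99 on SVZ arrays, 2.80, 3.95, 1.71, 2.15 and 2.23 on hippocampus arrays, and 2.40, 3.15, 3.27, 3.15 and 3.17 on cerebellum arrays. SVZ arrays 2 to 5 lay above every array of the other regions, and SVZ array 1 below every cerebellum array. With all arrays Btg2 differed by 1.35 ± 0.56 in SVZ against cerebellum (limma adjusted p = 0.185) and by 1.81 ± 0.56 in SVZ against hippocampus (adjusted p = 0.486, unadjusted p = 0.00593). Without SVZ array 1 both were called, at 1.94 (adjusted p = 0.0102) and 2.40 (adjusted p = 0.0499), though the second call was lost when hippocampus array 3 was left out as well (2.19, adjusted p = 0.0802). The probe sets of Btg2 disagreed in hippocampus against cerebellum, at -0.46 for the one used and 1.13 for the other, neither called, and in SVZ against hippocampus gave 1.81 and 0.68.

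Ier2 read between 1.62 and 2.75 on SVZ arrays, between 1.29 and 2.64 on hippocampus arrays and between 0.96 and 1.89 on cerebellum arrays, all at or below 3. Its difference in SVZ against cerebellum was 0.66 ± 0.29 (limma adjusted p = 0.209), with overlapping arrays.

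The number of members that passed the test moved most, among single arrays left out, with SVZ array 1. Without it, 5 members were called higher in SVZ than in cerebellum, Fos, Fosb, Nr4a1, Nr4a2 and Btg2, against 1.19% of all genes, and 1, Btg2, was called higher in SVZ than in hippocampus, against 0.0495% of all genes. With all arrays kept, the count in SVZ against cerebellum was 4 with array weights, 3 under quantile normalization, with region weights, without dim probe sets or with the replicate block, and 0 with the spike-in covariate. It was 3 without hippocampus array 2 and 1 without SVZ array 4 or 5 or any of cerebellum arrays 1 to 4. Without SVZ array 1, Nr4a2 was called in hippocampus against cerebellum, at the same difference of 2.57 with a smaller shared spread (limma adjusted p = 0.0106). The mean of the 10 members was 3.42 on SVZ array 1 and 5.78 to 6.17 on the other 4 SVZ arrays. It was 3.89, 6.03, 3.88, 3.66 and 4.18 on hippocampus arrays and 3.36, 3.50, 3.83, 3.66 and 4.30 on cerebellum arrays. Hippocampus array 2 thus sat with SVZ arrays 2 to 5, and SVZ array 1 sat with cerebellum. Between 4 and 8 members were above 3 on SVZ arrays, 4 to 8 on arrays of hippocampus and 3 to 6 on those of cerebellum.

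**Figure D4:**
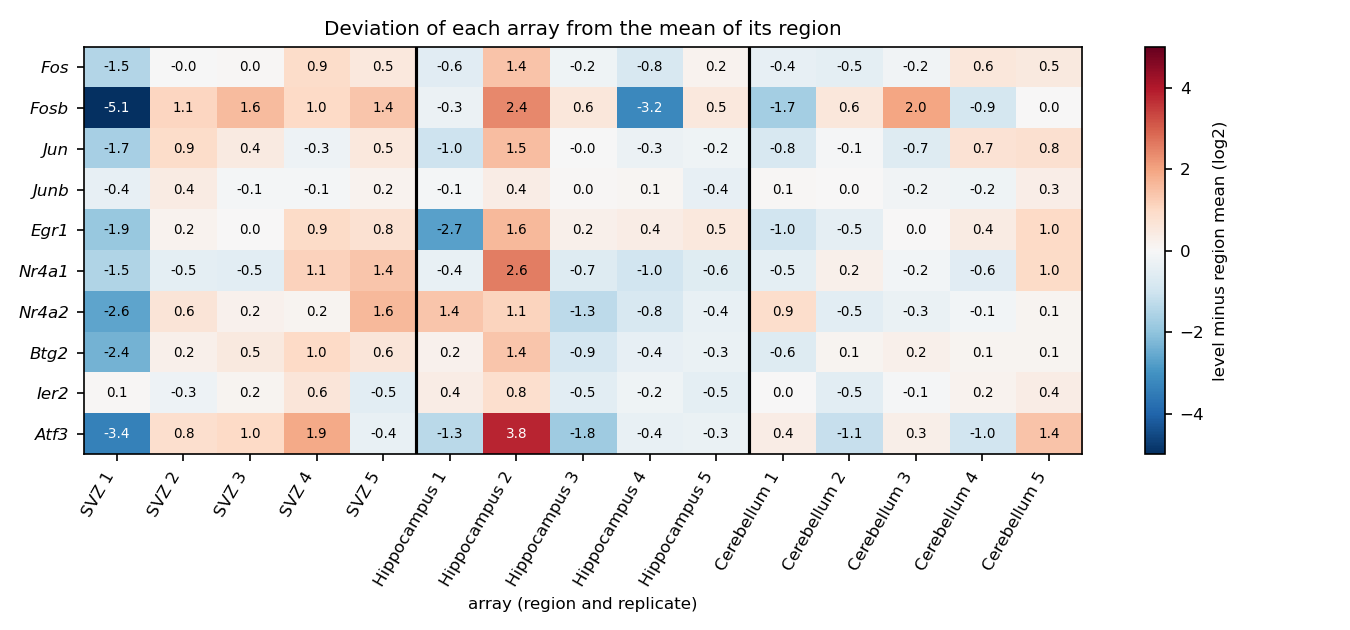
Deviation of each array from the mean of its region (colour and printed number, log2), with the 10 members in rows and the 15 arrays in columns. SVZ array 1 is below its region mean for 9 of the 10 members, most for Fosb (-5.1), and hippocampus array 2 is above for all 10, most for Atf3 (3.8), as is cerebellum array 5.

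Members tended to be high or low in the same pools. After each region's mean was subtracted, all 45 pairs of members had a positive Pearson correlation over the 15 arrays, between 0.07 and 0.83 with a median of 0.59. The same count was not made for pairs of other genes, so these values are not shown to be particular to the members. Adjusted over the 45 pairs, 4 had an adjusted permutation p under 0.05. These were Fos with Egr1 (r = 0.78, Spearman rho = 0.82), Fos with Nr4a1 (r = 0.82, rho = 0.60), Jun with Egr1 (r = 0.78, rho = 0.67) and Nr4a1 with Btg2 (r = 0.77, rho = 0.81), each with an adjusted permutation p of 0.0351 for r (two-sided, arrays shuffled within region). Their unadjusted permutation p values were 0.00245, 0.00312, 0.00216 and 0.00139. By Spearman correlation 2 pairs passed, Fos with Egr1 and Nr4a1 with Btg2 (adjusted permutation p = 0.018 each), while Fos with Nr4a1 (adjusted p = 0.12) and Jun with Egr1 (adjusted p = 0.0839) did not, by the same permutation test. Under quantile normalization 0 of the 45 pairs passed by the same permutation test, with 15 at an unadjusted p under 0.05, against 22 with the deposited values. When the 2 arrays farthest from the median level of the first gene were left out, r was 0.75 for Fos with Egr1, 0.77 for Fos with Nr4a1, 0.56 for Jun with Egr1 and 0.72 for Nr4a1 with Btg2. Of the 4, Nr4a1 with Btg2 alone still passed (adjusted permutation p = 0.0495). For Jun with Egr1 the arrays left out were SVZ array 1 and hippocampus array 2, and for the other 3 pairs SVZ arrays 4 and 5. SVZ array 1 and hippocampus array 2 deviated most from their region means for the first gene of each of the 4 pairs. Without those 2 arrays, a choice made after seeing the data, r was 0.57 for Fos with Egr1, 0.47 for Fos with Nr4a1, 0.56 for Jun with Egr1 and 0.48 for Nr4a1 with Btg2. With the 2 most deviating arrays of the first gene left out of each pair, 0 of the 45 passed by the permutation test, 5 had an unadjusted p under 0.05, 37 were positive and the median r was 0.35. The 4 relations called with all arrays were thus not called without those arrays. Leaving out the most deviating arrays also lowers the spread and the number of arrays, so it cannot show what the relations rest on. With the 2 arrays farthest from the median left out instead, 7 of the 45 pairs passed, 1 of them among the 4.

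The genes outside the 10 whose levels followed the members' mean most closely across pools were found among 4808 genes with a mean level above 3, as a description with no test. After centring on region, the Pearson correlation over 15 arrays was 0.94 for Ifitm3, an interferon-induced membrane protein, 0.93 for Fnbp1l, 0.92 for H2-D1, a class I histocompatibility gene, 0.92 for Pcna, the sliding clamp of DNA replication, and 0.91 for Txn1, thioredoxin. Fam50a, Snrpg, Rps20, Dnajc9 and Mrps6 followed, at 0.90 to 0.88. Without centring, the correlations ranged from 0.88 for Ifitm3 to 0.002 for Mrps6. Only Ifitm3 had a positive difference in SVZ against cerebellum, at 1.37. The other genes of the 10 went the other way than the members, Mrps6 by -1.72, with none called by limma. Ifitm3 read 2.19 on SVZ array 1 and 7.55 on SVZ array 2. Each array is a separate pool, and all genes on an array share its pool, amplification and depth of signal. The part of these in the likeness was not tested.

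The wider early response was sampled with further gene lists. Of 13 AP-1 and ATF partners, 12 had positive differences in SVZ against cerebellum, with 0 called by limma and 1 at an unadjusted p under 0.05. Fosl2, a further Fos family member, read 1.15, 4.72, 2.98, 6.77 and 4.17 on SVZ arrays and 2.43, 1.57, 1.80, 1.18 and 2.37 on cerebellum arrays, a difference of 2.09 ± 0.96 (limma adjusted p = 0.229). Maff, a small Maf protein that pairs with AP-1 type factors, differed by 2.43 ± 1.14 (adjusted p = 0.239). In hippocampus against cerebellum 1 of the 13 was called, Atf4, the factor of the integrated stress response, which was higher by 0.89 ± 0.20 (limma adjusted p = 0.0178, and 0.0530 without cerebellum array 2). That call was also lost without dim probe sets, with a trended and robust spread, with the spike-in covariate and with the mean of probe sets, which gave 0.40.

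Of 6 relatives and corepressors of the EGR and NR4A factors, 0 were called by limma in SVZ against cerebellum and 1 had an unadjusted p under 0.05. The hippocampus gave 1 call against cerebellum, Nr4a3, the last of the NR4A receptors. It read 2.47, 2.85, 2.92, 2.21 and 2.56 on hippocampus arrays, above all cerebellum arrays at 1.37, 1.03, 1.27, 1.27 and 1.5, and was higher by 1.31 ± 0.21 (limma adjusted p = 0.00221). The call held with each array left out in turn, at limma adjusted p values up to 0.00868. It also held in the other fits that tested it, at adjusted p values up to 0.0181. The run without dim probe sets left Nr4a3 out, and its 2.49-fold difference did not reach the series' own threshold of over 4-fold. On SVZ arrays it read 1.5, 2.29, 1.27, 2.12 and 2.18, with a difference from cerebellum of 0.58 ± 0.21 (adjusted p = 0.134). On average Nr4a1 and Nr4a2 were highest in SVZ and Nr4a3 in hippocampus. In SVZ against hippocampus, however, Nr4a3 was not called (-0.73, limma adjusted p = 0.456), nor was Nr4a1 (adjusted p = 0.478) or Nr4a2 (adjusted p = 0.771). Different rankings of the regions were therefore not shown. Nr4a3 read at or below 2.92 on every array and near the array medians in cerebellum, so the size of its differences is uncertain.

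Among 35 other primary response genes, 1 was called in each comparison with cerebellum, and it was lower. At an unadjusted p under 0.05, 10 of the 35 were higher in SVZ than in cerebellum and 5 in hippocampus than in cerebellum. Rgs2, which shortens signalling by G proteins, fell by 1.72 ± 0.40 on the log2 scale in SVZ (limma adjusted p = 0.0202). It was also lower in hippocampus, by -1.62 ± 0.40 (limma adjusted p = 0.0315), with cerebellum arrays at 7.22 to 8.34. Of 16 feedback inhibitors, 0 were called by limma in SVZ against cerebellum, where 6 had an unadjusted p under 0.05 (4 of them higher), and 1, Dusp6, a phosphatase of ERK, was lower in hippocampus by 3.00 ± 0.74 (limma adjusted p = 0.0322). Dusp6 read 1.68, 4.28, 2.24, 1.58 and 3.39 on hippocampus arrays and 5.30 to 5.94 on cerebellum arrays. Zfp36, which degrades AU-rich mRNAs such as those of immediate early genes, read 3.97, 9.99, 9.35, 8.76 and 10.04 on SVZ arrays and 5.21, 5.32, 6.21, 5.42 and 6.29 on cerebellum arrays. SVZ arrays 2 to 5 lay above cerebellum and array 1 below it, as for Btg2 and Fosb, and the difference of 2.73 ± 1.00 was not called (limma adjusted p = 0.138). Without SVZ array 1 it was called, at 3.85, as it was with array weights, at 3.26. Of 10 neuronal activity effectors, among them Arc, Npas4 and Bdnf, 0 were called by limma in any comparison, with 1, 1 and 2 at an unadjusted p under 0.05 in SVZ against cerebellum, hippocampus against cerebellum and SVZ against hippocampus. Of these 10, however, 5 were at or below 3 on all SVZ arrays, 8 on all hippocampus arrays and 9 on all cerebellum arrays. Their probe sets therefore gave little room to see a difference. Of 22 measured upstream kinases and factors, 2 kinases were lower in SVZ than in cerebellum, Mapk9, which codes for JNK2, by -2.28 ± 0.54 (limma adjusted p = 0.0244) and Map2k1, a kinase of ERK, by -1.63 ± 0.43 (adjusted p = 0.0402), and 0 were called by limma in hippocampus against cerebellum, with 2 at an unadjusted p under 0.05. The calls of Rgs2, Dusp6, Mapk9 and Map2k1 were near the threshold: leaving out 1 array ended them in 2 to 8 of 15 cases, at adjusted p values of up to 0.106, with the direction kept, and quantile normalization and the spike-in covariate ended all of them with every array kept. In SVZ against hippocampus, 0 genes of these lists were called by limma, and 1 to 3 per list had an unadjusted p under 0.05.

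The levels of other gene groups are given beside the members. Of 15 microglia markers, 5 were higher in SVZ than in cerebellum and 2 in hippocampus. Csf1r, the receptor that microglia need to survive, was higher by 5.34 ± 0.92 in SVZ (limma adjusted p = 0.00340), and Laptm5 by 4.92 ± 0.85 (adjusted p = 0.00345). The mean of the 15 markers was 2.90 to 5.69 on SVZ arrays, 2.62 to 4.70 on hippocampus arrays and 1.31 to 2.60 on cerebellum arrays, with the lowest SVZ value on array 1. In hippocampus the highest microglia mean was on array 3, where the mean of the members was 3.88, while array 2, with a member mean of 6.03, had a microglia mean of 3.85. Of the 15 markers, 4 were at or below 3 on all SVZ arrays, 5 on all hippocampus arrays and 10 on all cerebellum arrays. Of 12 endothelial and pericyte markers, Pdgfrb and Slc2a1 were called higher in SVZ and Slc2a1 in hippocampus. Their mean ranged from 2.48 (array 1) to 4.45 in SVZ, from 2.77 to 4.30 (array 2) in hippocampus and from 2.15 to 2.91 in cerebellum. Of 10 oligodendrocyte and precursor markers, Olig1 and Olig2 were higher in SVZ than in cerebellum, by 4.52 ± 0.28 (limma adjusted p = 5.11e-07) and 1.03 ± 0.23 (adjusted p = 0.0158), and Cnp was lower (-2.02, adjusted p = 0.000315). In hippocampus Olig1 was higher (4.02) and Cnp lower (-2.97). The mean of the 10 was 2.78 to 3.47 on SVZ arrays, 2.36 to 2.72 on hippocampus arrays and 1.97 to 2.27 on cerebellum arrays, with 3.07 on SVZ array 1, within the range of the other SVZ arrays. Among the 10 astrocyte markers S100b (-3.41) and Slc1a3 (-1.83) were lower and Glul (0.92) higher in SVZ than in cerebellum, and S100b, Slc1a3 and Aldoc were lower in hippocampus. The Glul call was lost in 5 of 15 cases with 1 array left out. With the spike-in covariate, the calls of Csf1r, Laptm5, Pdgfrb, Olig2, Slc1a3 and Glul in SVZ against cerebellum were lost. Those of S100b, Olig1, Cnp and Slc2a1 in that comparison held. Of 13 neuron markers, Map2 alone was called, lower than cerebellum in SVZ (-1.03, limma adjusted p = 0.0434) and in hippocampus (-1.53, adjusted p = 0.00468). The SVZ call was lost in 12 of 15 cases with 1 array left out. In SVZ against cerebellum, the heat shock genes that tissue dissociation can induce mostly went the other way than the members, with a median difference of -0.54. By limma, 3 of 13 were called lower in SVZ, among them Hsp90aa1 (-2.02, limma adjusted p = 0.0356, up to 0.0886 with 1 array left out), and 4 lower in hippocampus. Of the 13, 2 had positive differences in SVZ against cerebellum, 1 of them at an unadjusted limma p under 0.05. In SVZ against hippocampus, however, 10 of the 13 were positive, the direction of the members. Their median difference there was 0.45 beside -0.004 over all genes, with 0 called by limma and 0 at an unadjusted p under 0.05. Hspa1a had its highest mean in SVZ, at 4.45, with 3.48 in hippocampus and 3.20 in cerebellum. Within regions, however, the mean of the heat shock genes was lowest of the SVZ arrays on array 1, at 6.05, and highest of the hippocampus arrays on array 2, at 7.49. Ependymal and choroid plexus markers, none of them called in a comparison with cerebellum (1 of 10 at an unadjusted limma p under 0.05 in SVZ, 0 in hippocampus), had means of 1.5 to 2.31 on SVZ arrays, 2.16 to 6.14 on hippocampus arrays and 1.61 to 5.74 on cerebellum arrays. Their highest values were on hippocampus array 2 and cerebellum array 5, which are also the arrays of their regions with the highest mean of the members. The part that these cells or the dissociation had in the members' levels was not tested.

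**Figure D5:**
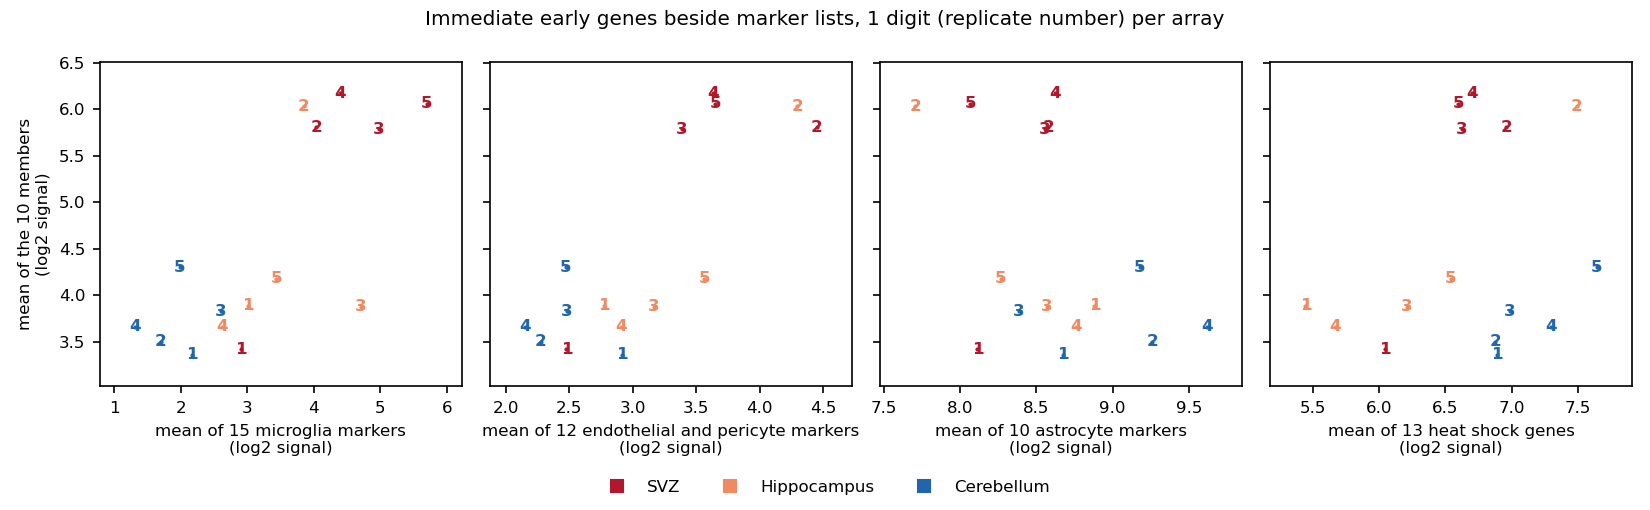
Mean level of the 10 members (vertical axis, log2 signal) against the mean of a marker list (horizontal axes, log2 signal) for microglia, endothelial and pericyte, astrocyte and heat shock genes, with 1 digit (the replicate number) per array. The vertical values are the same in every panel, whatever the marker list. SVZ arrays 2 to 5 and hippocampus array 2 form the upper group, at member means of 5.78 to 6.17, and SVZ array 1 lies with the lower group at 3.42.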

How the data were processed

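Log2 values of 15 Affymetrix mouse arrays were used, as deposited by the authors after RMA normalization, per the submitters' processing notes. The notes give no log base, and it was read from array maxima of 14.97 to 15.08. No version of RMA and no further background step is named in the sources used here. Of 45101 probe sets, 34958 carried 1 gene symbol, 932 several and 9211 none, 34741 symbols were updated through Entrez identifiers, and 64 control probe sets were left out. Each of 18193 genes was read from its probe set with the highest mean. No 2 arrays held identical values. limma 3.58.1 in R 4.3.3 fitted region over all 15 arrays, which share 1 estimate of the spread per gene, with Benjamini-Hochberg adjustment over all genes, and was tested on simulated data. Correlations were tested with 100000 permutations. Named genes were all members, the 10 genes most like their mean, and, from every list, up to 2 called genes per direction by size of difference, or failing any the 2 with the lowest p, of which the text gives a part. The members and lists were chosen with earlier results of these data known. Labels do not say that equal replicate numbers mark shared mice or days. The correlations of their deviations were -0.12 to 0.14 over 15 pairs, with 4 over 0.1. They were not set beside those of unequally numbered arrays, so they do not show whether the numbers pair. Alternatives covered normalization, filters, probe sets, weights, spread, thresholds, the spike-in covariate, a replicate block and each array left out. The number of arrays limits the precision, and p-values measure the spread between pools. Figures used matplotlib 3.10.9 in Python 3.11.15.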

Additional observations from a re-analysis of the deposited data

Results flagged for a closer look

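In each region, the highest and lowest of the 5 arrays of each member were tested for a gap to the nearest other array above 0.71 of the group's range, Dixon's 95% limit. Of 30 groups of 5 arrays, 5 had such an array, where chance gives about 1 in 20 groups. Fosb read 1.16 on SVZ array 1, with a gap of 0.91 of the range, and Btg2 read 2.03 on the same array, with a gap of 0.778. Hippocampus array 2 was the high one for Nr4a1, at 5.13 with a gap of 0.831, and for Atf3, at 6.47 with a gap of 0.743. Btg2 on cerebellum array 1 read 2.40, a gap of 0.862 within a narrow group whose other arrays lay between 3.15 and 3.27. The members are not independent of each other on an array, so the flags on SVZ array 1 and on hippocampus array 2 are not separate events.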

How the results depend on the processing

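With all arrays, 2 members were called in SVZ against cerebellum, 0 in hippocampus against cerebellum and 0 in SVZ against hippocampus. No called difference changed sign under any alternative run. In SVZ against cerebellum the count was 4 with array weights, 3 under quantile normalization, without dim probe sets and with region weights, adding Fos, and 0 with the spike-in covariate, and 1 to 5 when each array was left out in turn, with 5 without SVZ array 1. In hippocampus against cerebellum it was 1 (Nr4a2) under quantile normalization, without dim probe sets, with the mean of probe sets, array weights, region weights, a trended and robust spread, 2 regions alone and the series' own thresholds (over 4-fold, p under 0.01), and 0 to 1 when each array was left out. In SVZ against hippocampus it was 1 (Nr4a1) at the series' thresholds, and 0 to 1 when each array was left out. Leaving out SVZ array 1 and hippocampus array 3 together, chosen after seeing the data, gave 5, 1 and 0 calls. The replicate block gave 3 calls in SVZ against cerebellum, adding Egr1 at an adjusted p of 0.0399, and 0 in the other comparisons. The correlated pairs numbered 4, against 36 without centring on region, 0 under quantile normalization 7 without the 2 farthest arrays and 0 without the 2 of largest deviation from the region mean, the last chosen after seeing the data (5 at an unadjusted permutation p under 0.05, and 15 under quantile normalization). Over all genes, 188 higher and 814 lower in SVZ than in cerebellum became 40 and 144 with the spike-in covariate and 409 and 1152 with array weights, and 147 and 722 in hippocampus became 34 and 178 with that covariate. Median centring moved the median difference over all genes by -0.104 in SVZ and -0.112 in hippocampus against cerebellum. Uncalled members that changed sign in hippocampus against cerebellum included Jun (1.08 with the spike-in covariate), Btg2 (0.33 with the mean of probe sets) and, without hippocampus array 2, Fos (-0.14) and Atf3 (-0.39). The cause of these shifts was not tested. Low signal limits Junb and Ier2 and, outside the members, Nr4a3 and many of the neuronal activity effectors.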
